A study of Mus musculus with 10 samples.

Results

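GATA factors are transcription factors that recognise the DNA letters GATA through zinc fingers, and Zfpm1 (also called FOG1) encodes the cofactor that binds one of those fingers. The 6 genes described here, *Gata2*, *Gata3*, *Gata4*, *Gata5*, *Gata6* and *Zfpm1*, were chosen by name out of 21938 protein-coding genes. For each gene the peaks of H3K4me3, the histone mark found at promoters of transcribed genes, were collected wherever they overlapped any of its promoter windows, which ran from 1000 bp before each annotated transcription start site (TSS) to 100 bp after it. Each of the 6 genes had such a promoter peak in at least 1 of 10 libraries.

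GATA6 starts the primitive endoderm (PrE) programme in the inner cell mass of the mouse embryo, and GATA4 acts after it in the same lineage. GATA3 and GATA2 are known from trophectoderm and from blood, GATA5 from endoderm and heart. FOG1 works with GATA1 and GATA2 in blood cells, where it can help to activate or to repress their targets.

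The cells were naive extra-embryonic endoderm (nEnd), a mouse stem cell culture that resembles early PrE, from 1 cell line, OCT4-mCherry, with no treatment in any group. Sorting by OCT4-mCherry fluorescence and surface PDGFRA gave Oct4+ nEnd (4 libraries), double positive (DP) nEnd (3) and Pdgfra+ nEnd (3). The mark was mapped by CUT&Tag, a method that tethers a transposase to it through an antibody. The study calls its replicates biological, and the labels name no batch.

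The lists differed in length and in coverage. They held 3477 to 9144 peaks in Oct4+ nEnd, 7575 to 8836 in DP nEnd and 6510 to 10545 in Pdgfra+ nEnd, and the median of the highest coverage was 22 to 59, 107 to 144 and 67 to 143. Oct4+ replicate 3 had the shortest list and was left out of the consensus list for its population, so calls are given with and without it. Coverage was not scaled between libraries and the read depth is unknown. Peaks were therefore ranked within their library, and a percentile is the percent of the library's peaks with a lower value, set to 0 where a gene had no promoter peak. Of 5 naive pluripotency markers, 5 were marked in every Oct4+ library, 3 to 4 in DP and 0 to 1 in Pdgfra+ libraries, and of a wider list of 10 pluripotency genes 10, 7 to 9 and 2 to 5. Of 5 PrE markers, with the sort gene *Pdgfra* among them, 0 to 2 were marked in Oct4+ libraries and 5 in every DP and Pdgfra+ library. Of a wider list of 16 PrE genes, 1 to 8 were marked in Oct4+, 14 to 16 in DP and 13 to 14 in Pdgfra+ libraries. Of 15 genes of fibroblasts, the feeder cells of the culture, 0 to 1 were marked in Oct4+, 0 to 2 in DP and 0 to 3 in Pdgfra+ libraries. These were *Twist1* in 5 libraries of the 3 populations, *Tbx15* in DP replicate 2 and Pdgfra+ replicate 1 and *Fbn1* in Pdgfra+ replicate 1, each at a percentile of 14.1 or less by total signal. The other 12, the collagen genes *Col1a1*, *Col1a2* and *Col3a1* among them, were at 0 in every library. In a sorted population, fewer cells with the mark and less mark per cell cannot be told apart.

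The promoter sequences below belong to a gene marked in most libraries (*Zfpm1*), a gene marked in DP and Pdgfra+ nEnd alone (*Gata3*) and a pair of genes marked in a single library (*Gata2*, *Gata5*). They are shown so that the base composition of promoters unlike in H3K4me3 can be compared. They come from a table of RefSeq promoters (GRCm38.p6) that matched 4 of the 6 members, and run 5′ to 3′ on the strand of the gene, with CG dinucleotides in capitals. *Zfpm1* lies at chr8:122281891-122282190 (+), *Gata3* at chr2:9878551-9878850 (-), *Gata2* at chr6:88198414-88198713 (+) and *Gata5* at chr2:180334630-180334929 (-).
Zfpm1: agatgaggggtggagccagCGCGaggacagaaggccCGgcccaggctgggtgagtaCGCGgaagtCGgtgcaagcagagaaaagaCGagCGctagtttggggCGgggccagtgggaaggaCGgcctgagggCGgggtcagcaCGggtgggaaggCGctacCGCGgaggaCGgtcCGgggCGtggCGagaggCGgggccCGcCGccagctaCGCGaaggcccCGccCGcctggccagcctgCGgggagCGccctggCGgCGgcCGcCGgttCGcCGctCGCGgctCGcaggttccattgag
Gata3: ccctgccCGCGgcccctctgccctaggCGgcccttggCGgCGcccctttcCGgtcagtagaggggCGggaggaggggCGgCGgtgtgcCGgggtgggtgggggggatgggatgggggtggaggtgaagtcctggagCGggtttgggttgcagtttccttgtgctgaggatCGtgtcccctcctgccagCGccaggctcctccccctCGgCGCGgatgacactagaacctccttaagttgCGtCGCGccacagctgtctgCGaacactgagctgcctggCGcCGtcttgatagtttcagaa
Gata2: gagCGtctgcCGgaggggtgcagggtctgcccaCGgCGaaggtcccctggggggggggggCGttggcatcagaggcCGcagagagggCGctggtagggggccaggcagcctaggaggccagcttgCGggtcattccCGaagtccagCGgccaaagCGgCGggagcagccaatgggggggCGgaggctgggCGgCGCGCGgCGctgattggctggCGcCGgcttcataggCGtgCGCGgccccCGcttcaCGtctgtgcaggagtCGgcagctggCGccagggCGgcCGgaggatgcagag
Gata5: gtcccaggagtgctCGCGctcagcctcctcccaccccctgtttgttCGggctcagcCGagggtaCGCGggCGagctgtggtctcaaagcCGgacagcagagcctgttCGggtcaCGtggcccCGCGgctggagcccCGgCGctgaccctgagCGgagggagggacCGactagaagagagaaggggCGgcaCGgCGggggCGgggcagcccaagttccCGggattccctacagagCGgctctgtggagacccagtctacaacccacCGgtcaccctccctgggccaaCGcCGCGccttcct

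Each of these windows of 300 bases was rich in CG. *Zfpm1* held 37 CG dinucleotides, *Gata2* 29, *Gata5* 26 and *Gata3* 22, against a median of 7 over 32851 RefSeq promoters. The number was higher than in 94.4%, 87.1%, 83.1% and 76.9% of those promoters. The upstream *Gata2* promoter at chr6:88193641-88193940 (+), not printed, held 32. A GATA site, searched on both strands as AGATAA or AGATAG and also as TGATAA or TGATAG, was found once in the *Gata3* window and in none of the other windows. Of all promoters in the table, 29.8% held at least 1.

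*Gata6* (chr18:11052064-11085635, + strand) had the highest ranked promoter peak of the 6 genes in DP and Pdgfra+ nEnd and a low one in Oct4+ nEnd. By total signal, the summed coverage of a peak, it stood at the 99.9th percentile in each of the DP replicates 1, 2 and 3, where it was peak 8, 7 and 7 of the library. In Pdgfra+ replicates 1, 2 and 3 it was peak 4, 8 and 3. In Oct4+ replicates 1 to 4 the percentile was 31.9, 21.0, 12.2 and 0, the last because replicate 4 listed no *Gata6* peak. The mean was 16.3 ± 13.5 (SD, n = 4) in Oct4+ nEnd, against 99.9 ± 0.00982 in DP (SD, n = 3) and 99.9 ± 0.0489 in Pdgfra+ nEnd (SD, n = 3). Oct4+ nEnd did not overlap with either of the others, while DP and Pdgfra+ nEnd overlapped.

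The *Gata6* peak of Oct4+ nEnd was wide but shallow. It spanned 7317, 4763 and 4536 bp in Oct4+ replicates 1, 2 and 3, wider than 89.7%, 80.4% and 76.6% of the peaks of those libraries. By highest coverage it stood only at the 1.88th, 2.65th and 0.0288th percentile. In Oct4+ replicate 3 the highest coverage was 7, and the stretch listed for it spanned 3286 bp. The mean coverage of the peak was 3.91, so 7 was not held over that whole stretch. The peak was thus broad for its library in the 3 Oct4+ libraries that listed it, and among the lowest in each. In DP nEnd it spanned 13031, 12496 and 10369 bp with the highest coverage at the 97.7th, 98.8th and 98.9th percentile. In Pdgfra+ nEnd it spanned 13274, 6632 and 11141 bp at the 99.9th, 95.7th and 99.5th percentile. Against the median peak of the same library, its total signal was 5.64, 6.59 and 6.23 times as high in DP nEnd, 8.46, 4.42 and 7.62 times in Pdgfra+ nEnd, and 0.750, 0.608 and 0.666 times in the Oct4+ libraries that listed it.

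At the main *Gata6* TSS (chr18:11052470) the DP peaks reached 4605 to 5153 bp upstream and 5461 to 7890 bp into the gene. In Oct4+ nEnd they reached 389 to 2102 bp upstream and 3388 to 5214 bp into the gene. A TSS further inside the gene (chr18:11059047, a retained-intron transcript) was covered in 2 DP and 2 Pdgfra+ libraries and in none of Oct4+ nEnd. The promoter of the noncoding gene *1010001N08Rik* lay under each of these peaks, so the signal of both genes cannot be told apart. The consensus lists held a *Gata6* peak in each population, of 7317 bp in Oct4+, 13044 bp in DP and 13274 bp in Pdgfra+ nEnd.

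**Figure D1:**
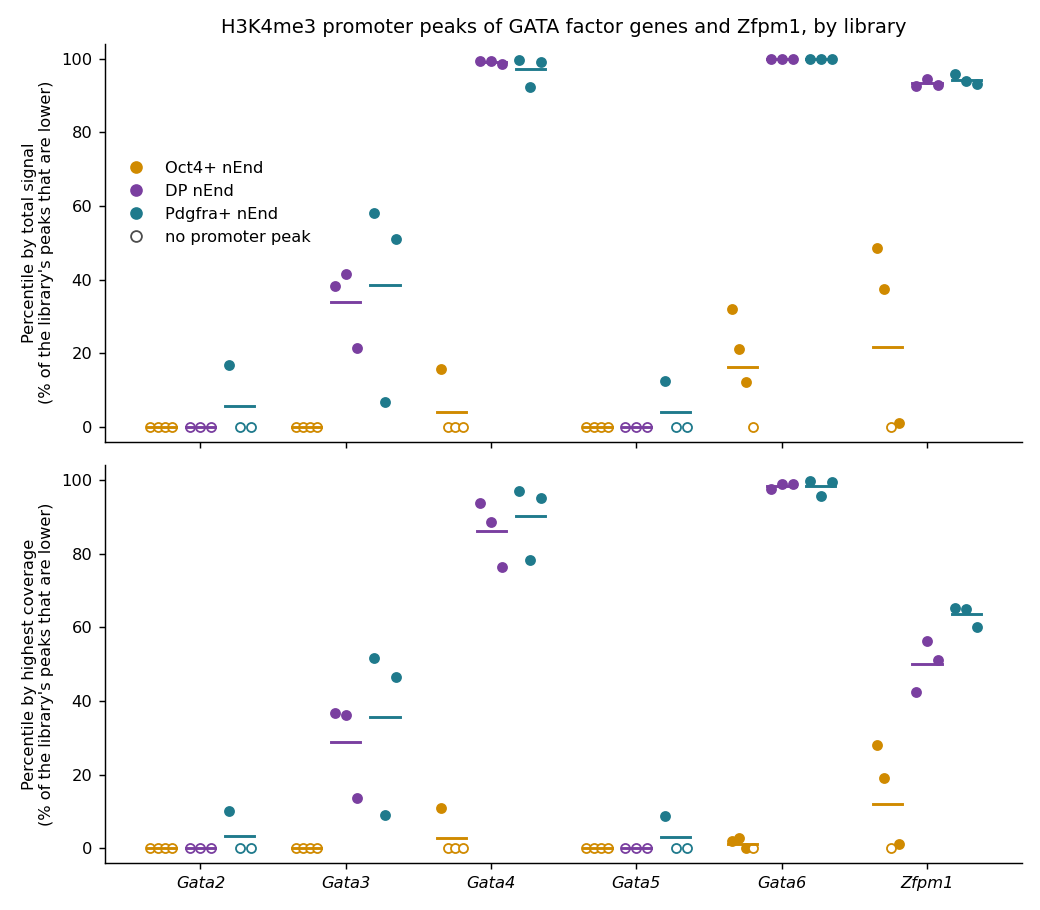
Percentile of the promoter peak by total signal (top) and by highest coverage (bottom) within each library, for the 6 genes; each point is 1 library (4 Oct4+, 3 DP, 3 Pdgfra+), open points are libraries with no promoter peak, set to 0, and lines are group means. *Gata4*, *Gata6* and *Zfpm1* stand at 92.3 or more by total signal in every DP and Pdgfra+ library and at 48.5 or less in every Oct4+ library.

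*Gata4* (chr14:63198922-63271692, - strand) was near the top of the peaks in DP and Pdgfra+ nEnd and nearly absent from Oct4+ nEnd. By total signal its promoter peak stood at the 99.3th, 99.3th and 98.7th percentile in DP replicates 1 to 3 and at the 99.7th, 92.3th and 99.2th in Pdgfra+ replicates 1 to 3. Among the Oct4+ libraries replicate 1 alone listed it, at the 15.6th percentile. The means were 3.91 ± 7.82 in Oct4+ (SD, n = 4), 99.1 ± 0.360 in DP (SD, n = 3) and 97.1 ± 4.13 in Pdgfra+ nEnd (SD, n = 3). By presence alone, 1 of 4 libraries against 3 of 3 gave p = 0.143 in Fisher's exact test for either comparison.

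In DP and Pdgfra+ nEnd the width of the *Gata4* peak varied more between libraries than that of any other member, by its SD. It was 11596, 17759 and 10102 bp in DP nEnd, 19417, 4325 and 12828 bp in Pdgfra+ nEnd and 3317 bp in Oct4+ replicate 1. Pdgfra+ replicate 2, whose median peak was the narrowest of the 10 libraries (2204.5 bp), gave the low value. The point of highest coverage barely moved by comparison. It lay 45.5 to 49 bp upstream of the TSS at chr14:63245271 in each of the 7 libraries that listed the peak, the Oct4+ library included.

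*Gata4* also has a distal promoter. Taking its promoters apart was chosen after the values were seen. The peak at the distal TSSs (chr14:63271124 and chr14:63271692) was listed in DP replicates 1, 2 and 3 with widths of 5828, 8760 and 5641 bp, in Pdgfra+ replicate 1 with 7811 bp and in no Oct4+ library. Its percentile by total signal was 54.4, 65.1 and 54.4 in DP nEnd and 43.4 in Pdgfra+ replicate 1, while by highest coverage it was 1.71, 9.55, 7.97 and 10.1. It was therefore a broad, shallow peak beside the tall one at the proximal promoter. Since the promoters were taken apart with this pattern in view, a test would only restate it, and none is given. A further peak between both promoters was listed in DP replicate 2 and Pdgfra+ replicate 1, and the TSS at chr14:63213607 was unmarked in each library. The consensus lists had the proximal and the distal peak in DP nEnd, the proximal one alone in Pdgfra+ nEnd and neither in Oct4+ nEnd.

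**Figure D2:**
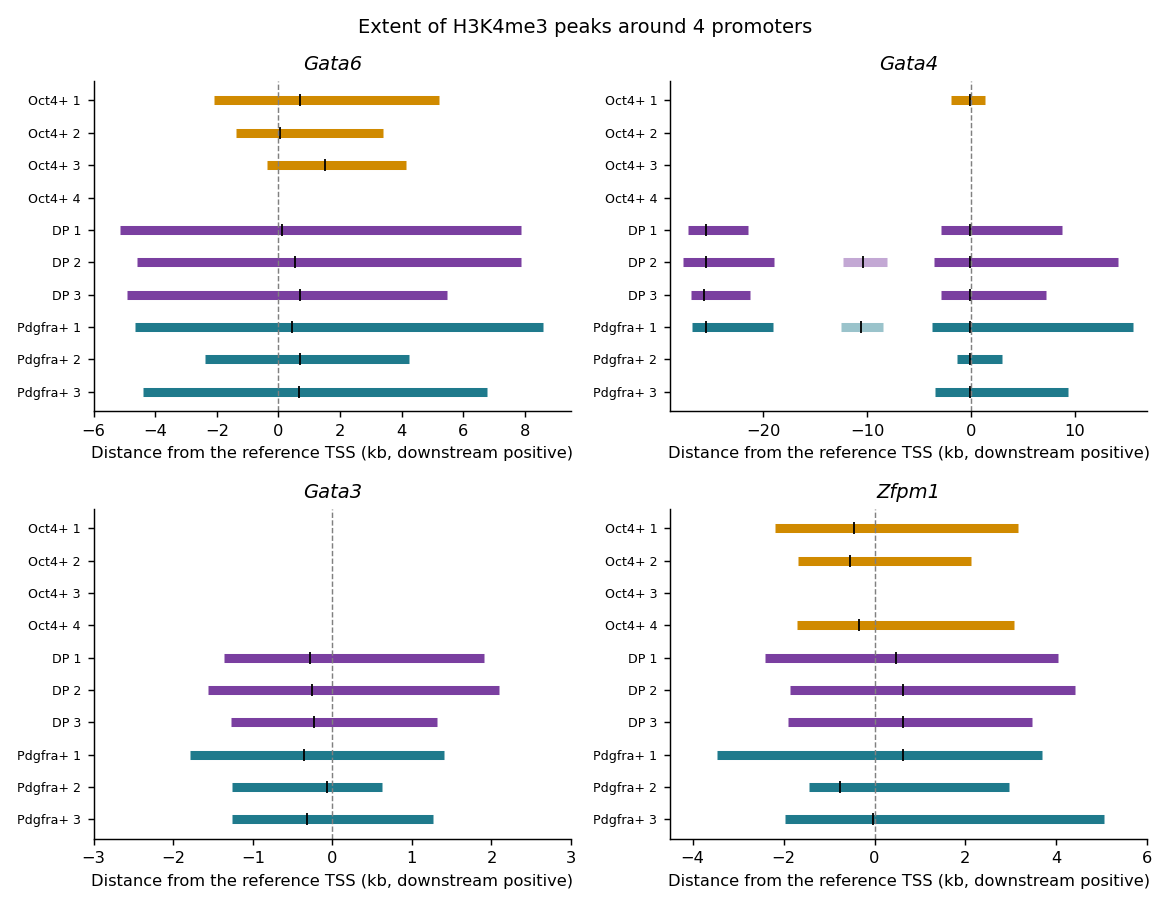
Extent of the H3K4me3 peaks at *Gata6*, *Gata4*, *Gata3* and *Zfpm1* in each library, as distance in kb from the main TSS (dashed line, downstream positive). Bars are peaks and pale bars overlap no promoter window. Black ticks mark the middle of the stretch listed for the highest coverage. The distal *Gata4* peak is seen in 3 DP and 1 Pdgfra+ libraries, and no Oct4+ library has a bar at *Gata3*.

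*Zfpm1* (chr8:122282141-122337251, + strand) was marked in every DP and Pdgfra+ library and in 3 of 4 Oct4+ libraries, with a lower rank in the latter. By total signal it stood at the 92.5th, 94.4th and 93.0th percentile in DP replicates 1 to 3 and at the 95.8th, 94.0th and 93.0th in Pdgfra+ replicates 1 to 3. In Oct4+ replicates 1 to 4 the percentile was 48.5, 37.5, 0 and 1.08. The means were 21.8 ± 24.9 in Oct4+ (SD, n = 4), 93.3 ± 0.974 in DP (SD, n = 3) and 94.3 ± 1.39 in Pdgfra+ nEnd (SD, n = 3). Oct4+ nEnd varied widely, and in replicate 4 the *Zfpm1* peak was number 4834 of 4887, at the edge of what the list holds.

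By highest coverage *Zfpm1* also separated DP from Pdgfra+ nEnd. The percentile was 42.4, 56.2 and 51.1 in DP nEnd, 65.2, 65.1 and 60.2 in Pdgfra+ nEnd and 27.9, 19.0, 0 and 1.25 in Oct4+ nEnd. The 3 populations thus did not overlap, in the order Oct4+, DP, Pdgfra+. Of the genes marked in each pair of populations, 18.4% were likewise lower in Oct4+ than in DP nEnd and 11.9% lower than in Pdgfra+ nEnd. Lower ranks in DP than in Pdgfra+ nEnd were found for 2.78% (exact permutation p = 0.10 for *Zfpm1*). The share of genes in the same order as *Zfpm1* over all 3 populations was not counted. The point of highest coverage lay 464.5 to 635 bp downstream of the TSS in DP nEnd and 341 to 546 bp upstream of it in the 3 Oct4+ libraries with a peak. In Pdgfra+ replicates 1, 2 and 3 it lay 635 bp downstream, 756 bp upstream and 33 bp upstream, so that Pdgfra+ nEnd overlapped both. This position was examined after the values were seen and was not tested. Oct4+ replicate 1 listed another peak at the 3′ end of the gene (chr8:122334711-122338490), which also touched the noncoding gene *Gm45353*. The consensus *Zfpm1* peak spanned 5344 bp in Oct4+, 6822 bp in DP and 8505 bp in Pdgfra+ nEnd.

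*Gata3* (chr2:9857078-9890034, - strand) was the one member marked in every DP and Pdgfra+ library and in no Oct4+ library. Its peak was of middling rank, unlike those of *Gata4* and *Gata6*. By total signal it stood at the 38.4th, 41.6th and 21.4th percentile in DP replicates 1 to 3 and at the 58.2th, 6.79th and 50.9th in Pdgfra+ replicates 1 to 3. By highest coverage the values were 36.7, 36.2 and 13.5 in DP and 51.7, 8.94 and 46.5 in Pdgfra+ nEnd. Widths were 3260, 3659 and 2596 bp in DP and 3201, 1885 and 2520 bp in Pdgfra+ nEnd. Pdgfra+ replicate 2 was again the low one. Fisher's exact test gave p = 0.0286 for Oct4+ nEnd against either population (adjusted p = 0.649 against DP and 0.851 against Pdgfra+ nEnd).

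All *Gata3* peaks lay at the TSS at chr2:9878600, the one whose sequence is printed above, and the coding TSS further upstream (chr2:9890034) was unmarked in each library. The noncoding gene *Gm13256* had its promoter under 5 of the 6 peaks, and *4930412O13Rik* under that of Pdgfra+ replicate 1. Its best rank was number 3830, so a cut of each library to its 3477 highest peaks by total signal left no *Gata3* peak and could not test the call. Oct4+ replicates 1 and 2, with 9144 and 8098 peaks, lacked the *Gata3* peak. DP replicate 3 and Pdgfra+ replicates 2 and 3 held it in shorter lists of 7575, 6510 and 7800 peaks. The median of the highest coverage was lower in both of these Oct4+ libraries than in each of these DP and Pdgfra+ libraries. The part of list length, coverage or read depth in the missing peak was not tested.

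*Gata2* (chr6:88193891-88207032, + strand) and *Gata5* (chr2:180325133-180334699, - strand) were marked in Pdgfra+ replicate 1 and in no other library. The *Gata2* peak (chr6:88195404-88201465) spanned 6062 bp at the 16.7th percentile by total signal and the 10.1th by highest coverage, and lay at the downstream promoter. The upstream *Gata2* TSS at chr6:88193891 was unmarked in each library. The *Gata5* peak (chr2:180331875-180335559) spanned 3685 bp at the 12.3th and 8.86th percentile and also covered the promoter of the noncoding gene *Gata5os*. Pdgfra+ replicate 1 had the longest list of the 10 (10545 peaks), and its lowest peak reached down to 0.190 times the median, the lowest of all libraries. It was also the library with 3 of 15 fibroblast genes and 3 of 8 blood and endothelial genes marked, against 0 to 2 and 0 to 1 in the others. Among the latter genes, *Klf1* was also marked in every DP library, Oct4+ replicates 1 and 2 and Pdgfra+ replicate 2. Over all genes, Pdgfra+ replicate 1 had 50.8% marked, against 18.3% to 44.8% in the others. The *Gata2* and *Gata5* peaks were number 8780 and 9243 of its list by total signal. The part of fibroblast, blood or endothelial cells in both peaks was not tested. No consensus list held a peak at *Gata2* or *Gata5*. Against Pdgfra+ nEnd, Fisher's exact test gave p = 0.429 for Oct4+ and 1 for DP nEnd for both genes.

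**Figure D3:**
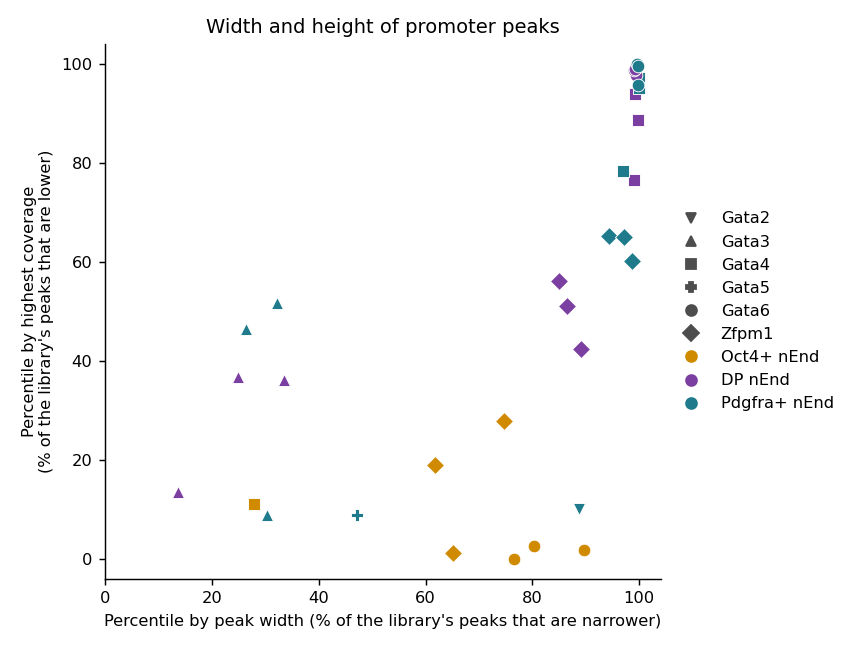
Percentile by width (horizontal) and by highest coverage (vertical) of each promoter peak within its library; symbols are genes and colours populations, and libraries with no promoter peak are left out. The Oct4+ *Gata6* peaks sit at the lower right, wider than 76.6% to 89.7% of peaks but at or below the 2.65th percentile in height, and the DP and Pdgfra+ *Gata6* peaks at the upper right.

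Oct4+ nEnd was then compared with DP nEnd over 10603 genes marked in at least 1 of the libraries. A gene was called where the libraries of both populations did not overlap. Higher ranks in DP nEnd by total signal were called for *Gata3*, *Gata4*, *Gata6* and *Zfpm1*, as for 25.6% of the 10603 genes. *Gata2* and *Gata5* had no promoter peak in these libraries and were not among the genes compared. Shares of all genes below are likewise shares of the genes marked in at least 1 library of the comparison. Each of the 4 reached the smallest p that 4 against 3 libraries allow in an exact two-sided permutation test, p = 0.0286, with an adjusted p of 0.230 after Benjamini-Hochberg adjustment over all genes. The differences, Oct4+ minus DP nEnd, were -95.2 percentile points for *Gata4*, -83.6 for *Gata6*, -71.5 for *Zfpm1* and -33.8 for *Gata3*. No gene of the whole table passed an adjusted p of 0.05 in any comparison. No member was higher in Oct4+ nEnd, where 4.61% of all genes were called (9.33% without Oct4+ replicate 3).

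The other measures called mostly the same members. By highest coverage the 4 genes were called (18.4% of all genes, exact permutation p = 0.0286 for each, adjusted p = 0.264). By width the 4 were called as well (16.7% of all genes), but for *Zfpm1* the widest Oct4+ peak, of 5344 bp, and the narrowest DP peak, of 5365 bp, nearly met, and the exact permutation test on the means gave p = 0.114. With the widths of all promoter peaks of a gene summed, the difference was -1599.9 bp and *Zfpm1* was no longer called, since Oct4+ replicate 1 has the further peak at the 3′ end. By a peak in every DP library and no Oct4+ library, *Gata3* alone was called (3.99% of all genes). The share of the gene body under peaks was higher in DP nEnd for 3 members (15.4% of all genes). For *Gata4* it was 22.8%, 40.4% and 20.9% in DP replicates 1 to 3, against 4.56% in Oct4+ replicate 1 and 0% in replicates 2 to 4. For *Gata3* it was 9.89%, 11.1% and 7.88% in DP nEnd and 0% in each Oct4+ library. For *Gata6* it was 24.7%, 24.7% and 17.5% in DP nEnd and 16.7%, 11.3%, 13.5% and 0% in Oct4+ replicates 1 to 4 (exact permutation p = 0.0571). For *Zfpm1* the groups overlapped, with 7.32%, 8.02% and 6.27% in DP nEnd and 10.3%, 3.86%, 0% and 5.57% in Oct4+ nEnd, where replicate 1 held the 3′ peak.

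Against Pdgfra+ nEnd, over 11614 genes, the same 4 members ranked lower in Oct4+ nEnd by total signal, as did 18.8% of all genes (exact permutation p = 0.0286 for each, adjusted p = 0.239). The differences, Oct4+ minus Pdgfra+ nEnd, were -93.2 percentile points for *Gata4*, -83.6 for *Gata6*, -72.5 for *Zfpm1* and -38.6 for *Gata3*. Here too 4.61% of all genes and no member were higher in Oct4+ nEnd (8.28% without Oct4+ replicate 3). By highest coverage the 4 were called (11.9% of all genes, adjusted p = 0.325 after exact permutation tests). Width called *Gata3* and *Gata4* (3.52% of all genes), and presence called *Gata3* alone (2.69%). For *Gata6* the 6632 bp of Pdgfra+ replicate 2 fell below the 7317 bp of Oct4+ replicate 1, and the groups overlapped (exact permutation p = 0.0857). Gene body cover also called *Gata3* and *Gata4* (4.32% of all genes). In Pdgfra+ replicates 1 to 3 it was 42.4%, 5.94% and 17.6% for *Gata4*, 9.71%, 5.72% and 7.65% for *Gata3*, 26.8%, 13.9% and 21.3% for *Gata6* and 6.69%, 5.39% and 9.16% for *Zfpm1*. Both comparisons share the Oct4+ libraries. Without Oct4+ replicate 3 the same number of members was called by each measure in both, and the smallest p that an exact permutation test of 3 against 3 libraries allows is 0.10. The mean percentile of Oct4+ nEnd was then 17.6 ± 16.2 for *Gata6*, 5.21 ± 9.03 for *Gata4* and 29.0 ± 24.8 for *Zfpm1* (SD, n = 3).

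DP and Pdgfra+ nEnd overlapped at nearly all of these promoters. Over 11222 genes, no member was called by total signal, where 2.78% of all genes were higher in DP and 4.81% in Pdgfra+ nEnd. The difference, DP minus Pdgfra+ nEnd, was -4.86 percentile points for *Gata3*, 2.02 for *Gata4*, -0.0236 for *Gata6* and -0.957 for *Zfpm1*, with exact permutation p = 0.80, 0.80, 0.40 and 0.40. The call by highest coverage for *Zfpm1*, lower in DP nEnd by 13.6 percentile points, was shared by 2.78% of all genes, with p = 0.10 in the exact permutation test and an adjusted p of 1. Peaks were wider in DP nEnd for 12.7% of all genes and gene body cover was higher for 12.2%, but no member was among either. Without DP replicate 3 or without Pdgfra+ replicate 1, *Gata3* was called wider in DP nEnd, by 924 and 969 bp, but so were 28.9% and 60.0% of all genes. In the same settings it was called higher in gene body cover, by 2.80 and 2.94 percentage points, as were 25.5% and 51.5% of all genes. *Gata4* was called higher in gene body cover, by 16.3 percentage points, without Pdgfra+ replicate 1. In the other direction, *Zfpm1* was called narrower in DP nEnd without Pdgfra+ replicate 2, as were 1.6% of all genes.

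Genes related to the members were taken from lists. Their background is the median difference over all genes, which was -9.05 percentile points for Oct4+ minus DP nEnd, -7.44 for Oct4+ minus Pdgfra+ nEnd and -0.828 for DP minus Pdgfra+ nEnd. Without Oct4+ replicate 3 the first 2 medians were -4.31 and -4.45. Of 9 other genes for GATA-type zinc fingers, 7 were marked in at least 1 library and *Gata1* and *Zglp1* in none. Their median difference was 10.3 against DP and 8.32 against Pdgfra+ nEnd, and the 3 that were called were higher in Oct4+ nEnd in both comparisons, with and without Oct4+ replicate 3 (4.61% of all genes with it). *Trps1*, which encodes a repressor with a single GATA-type finger, stood at 75.9, 74.7, 64.6 and 64.6 in Oct4+ replicates 1 to 4, at 13.4, 15.4 and 3.41 in DP nEnd and at 1.38, 0 and 0 in Pdgfra+ nEnd. It ranked above *Gata4* and *Gata6* in each Oct4+ library and below them in each DP and Pdgfra+ library. *Mta2* and *Mta3*, subunits of the NuRD corepressor complex, had means of 84.2 ± 5.25 and 91.4 ± 5.99 in Oct4+ (SD, n = 4), 70.6 ± 4.39 and 78.1 ± 1.98 in DP (SD, n = 3) and 62.8 ± 7.94 and 67.7 ± 8.11 in Pdgfra+ nEnd (SD, n = 3).

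Of 12 partner genes, 5 were marked in at least 1 Oct4+ or DP library and 6 in at least 1 Oct4+ or Pdgfra+ library. The 3 called were lower in Oct4+ nEnd in both comparisons, as were 25.6% and 18.8% of all genes, and the median differences were -33.0 and -18.7. Without Oct4+ replicate 3 these 3 were called and *Ldb1* and *Ctbp2* were called higher in Oct4+ nEnd, with medians of -20.2 and -12.3. *Runx1*, a transcription factor that works with GATA proteins in blood, stood at 96.7, 97.2 and 92.9 in DP nEnd, at 12.2, 6.26, 0 and 0 in Oct4+ nEnd and at 96.8, 16.5 and 91.4 in Pdgfra+ nEnd. The low value was again Pdgfra+ replicate 2. *Lmo4*, a LIM-only adaptor, had a mean of 51.3 ± 37.6 in Oct4+ (SD, n = 4), 93.5 ± 0.971 in DP and 95.3 ± 1.76 in Pdgfra+ nEnd (SD, n = 3). *Ctbp1*, a corepressor that binds FOG proteins, had means of 38.2 ± 31.2, 71.1 ± 3.53 and 73.0 ± 1.42. *Zfpm2*, *Tal1*, *Lyl1*, *Fli1*, *Nkx2-5* and *Tbx5* had no promoter peak in any library, and *Lmo2* had one in Pdgfra+ replicate 1.

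**Figure D4:**
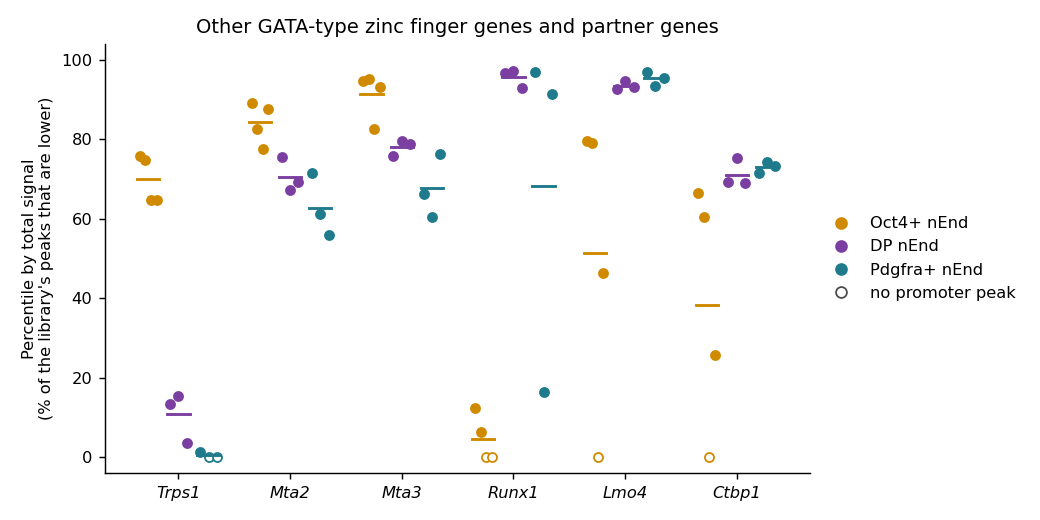
Percentile by total signal within each library for 3 genes of other GATA-type zinc finger proteins (*Trps1*, *Mta2*, *Mta3*) and 3 partner genes (*Runx1*, *Lmo4*, *Ctbp1*); points are libraries, open points have no promoter peak and lines are group means. The first 3 genes are highest in Oct4+ nEnd and the last 3 lowest, with *Runx1* at 16.5 in Pdgfra+ replicate 2. Only the genes called against DP and Pdgfra+ nEnd are shown from each list, so this contrast follows from the choice.

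The lineages in which GATA factors act are given beside the same shares of all genes, 25.6% lower in Oct4+ than in DP nEnd, 18.8% lower than in Pdgfra+ nEnd and 4.61% higher than in either. Of 16 PrE genes, 14 ranked lower in Oct4+ than in DP nEnd, with a median difference of -87.6, and 13 of 14 tested ranked lower than in Pdgfra+ nEnd, with a median of -88.3. Of 8 trophectoderm genes tested, 4 (*Krt8*, *Krt18*, *Tead3*, *Tead4*) were lower in Oct4+ nEnd in both comparisons and *Tfap2c* was higher. Of 10 pluripotency genes, 8 were higher in Oct4+ nEnd in both comparisons and 1 was lower. Without Oct4+ replicate 3 these counts were the same but for the pluripotency genes against Pdgfra+ nEnd, where 9 were higher.

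Profiles most like those of the members were found by the mean absolute difference in percentile by total signal over the 10 libraries. The nearest to *Gata4* were *Lama1* (0.959 percentile points), *Lamb1* (1.07) and *Pdgfra* (1.08), which encode laminin chains and the receptor used in the sort. The nearest to *Gata6* were *Col4a1* and *Col4a2*, the chains of type IV collagen that share a promoter peak (2.06), and the PrE factor *Sox17* (3.25). The nearest to *Gata3* were the keratin gene *Krt18* (1.80), *Gpx3* (2.53) and *Slc6a15* (2.53). The nearest to *Zfpm1* were *Sept9* (2.29), *Lpcat4* (2.35) and *Ctdspl* (2.64). *Krt18*, *Gpx3* and *Slc6a15* were, like *Gata3*, unmarked in each Oct4+ library and marked in each DP and Pdgfra+ library. They were chosen for a profile like that of *Gata3*, so this likeness follows from the choice.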

How the data were processed

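H3K4me3 CUT&Tag libraries were aligned to mm10, and per the labels the submitters' processing notes name bcl2fastq 2.19.1, Bowtie2, SAMtools 1.12, deepTools, SEACR and bedtools 2.26.0. The authors called peaks against IgG with the stringent setting of SEACR. The deposited signal is unscaled coverage, given for each peak as a sum and as its highest value. Consensus lists give positions.

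Members and lists were chosen with earlier results of these data known. TSSs of all transcripts came from GENCODE M21 (GRCm38) and sequences from RefSeq. An overlap of 1 bp marked a gene, and the promoter peak was the one of highest total signal. All members were named, with at most 4 examples per list (largest differences among called genes) and the 3 nearest genes per member. Tests were exact permutation tests of means and Fisher's exact test, two-sided, with Benjamini-Hochberg adjustment. Alternatives were a window of 2500 bp, 50% of the window covered, coding transcripts only, equal numbers of peaks, libraries with a peak only, summed widths, a replicate block and leaving out each library. Counting was tested on simulated data. Scripts ran under Python 3.11.15 with scipy 1.17.1, pandas 2.3.3 and numpy 2.4.6, and figures were drawn with matplotlib 3.10.9.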

Additional observations from a re-analysis of the deposited data

Results flagged for a closer look

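*Gata4* stood apart in Oct4+ replicate 1. This library listed a promoter peak of 3317 bp, at the 15.6th percentile by total signal and the 11.0th by highest coverage, with 4.56% of the gene body under peaks, while the other 3 Oct4+ libraries listed none. The 4 values describe a single peak. With the other 3 libraries at 0, any listed peak would stand this far apart, a ratio of 1 of gap to range, so the chance rate of Dixon's test does not apply. The lead of replicate 1 went with the longest list among the Oct4+ libraries (9144 peaks). The *Gata4* peak was number 7714 of that list by total signal.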

How the results depend on the processing

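Of 1190 recomputed values for 108 results, 1100 kept their call with no change of sign (some fell to 0, and some are 0 throughout), 49 gained a call, 13 lost one and 28 changed sign. The sign changes were all in DP minus Pdgfra+ nEnd, in 14 results that were not called. With equal numbers of peaks, 3477 per library, the *Gata3* difference by total signal became 0 for Oct4+ minus DP and 0 for Oct4+ minus Pdgfra+ nEnd, since its peaks rank below that limit. Its call by presence was lost too. *Gata4* gained the call by presence in both comparisons with equal numbers of peaks, and also without Oct4+ replicate 1. The share of all genes called by presence in these settings was not counted. Leaving out 1 library at a time, DP minus Pdgfra+ nEnd by total signal ranged from -20.8 to 4.94 for *Gata3*, from -0.360 to 3.34 for *Gata4*, from -0.0518 to -0.00934 for *Gata6* and from -1.57 to -0.204 for *Zfpm1*. *Gata3* and *Gata6* were called without Pdgfra+ replicate 2 (15.3% of all genes) and *Zfpm1* without DP replicate 2 (9.14%), each higher in Pdgfra+ nEnd. By highest coverage the range was -20.3 to 1.11 for *Gata3*, -9.71 to 1.09 for *Gata4* and -1.23 to 0.839 for *Gata6*. With equal numbers of peaks the difference by highest coverage was -12.2 for *Gata4* and -0.470 for *Gata6*. By this measure *Gata3* and *Gata4* were called lower in DP nEnd, and *Gata6* too, without Pdgfra+ replicate 2 (11.2% of all genes). Widths ranged from -2970 to 4576 bp for *Gata4*, -242 to 3079 bp for *Gata6* and -1055 to 313 bp for *Zfpm1*. By width *Zfpm1* was called narrower in DP nEnd without Pdgfra+ replicate 2 (1.6% of all genes). Cover of the gene and 10000 bp on each side ranged from -763.5 to 12714 bp for *Gata4* and as the widths for *Gata6* and *Zfpm1*. Gene body cover ranged from -1.95 to 16.3 percentage points for *Gata4*, -1.79 to 4.69 for *Gata6* and -0.717 to 1.17 for *Zfpm1*. The causes were not tested. The labels do not say whether the same replicate number marks a shared culture, day or sort. Correlations of deviations between same-numbered libraries ran from -0.203 to 0.209. They cannot decide it, since differently numbered libraries were not set beside them. A replicate block gave -78.2 for *Gata6*, -93.9 for *Gata4*, -64.6 for *Zfpm1* and -33.8 for *Gata3* (Oct4+ minus DP nEnd, total signal), lost no call and added 8 of 108, among them *Gata3* width (636 bp) and gene body cover (1.93 percentage points), higher in DP than in Pdgfra+ nEnd. The lack of a peak says only that none was called there against IgG. The lowest total signal listed in a library was 0.190 to 0.590 times its median.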
